A study of Mus musculus with 40 samples.

Results

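The Ikaros family is a small group of zinc finger transcription factors encoded by *Ikzf1* (Ikaros), *Ikzf2* (Helios), *Ikzf3* (Aiolos), *Ikzf4* (Eos) and *Ikzf5* (Pegasus). The 5 genes were taken by symbol from a table of 21950 mouse genes, and their transcript levels were described in 24 RNA-seq libraries of CD4+ T cells, in 8 groups of 3. All 5 were measured in every library and were among the 11725 genes tested. The study asked how calcium signaling separates regulatory T cells made in culture (iTregs) from those made in the thymus (tTregs, named nTreg in the labels), with conventional T cells (Tconvs) beside them. Cells came from spleens of Foxp3-GFP reporter mice on a C57BL/6 background, in which green fluorescence marks cells that express *Foxp3*, the lineage factor of regulatory T cells.

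Tconvs and tTregs were sorted from mice of 2 to 4 months, tTregs as CD4+ Foxp3-GFP+ cells, and each was profiled resting and activated. For iTregs, naive CD4+ CD62L-high CD44-low Foxp3-negative cells of 6-week-old mice were cultured for 4 days on plate-bound anti-CD3 (0.5 µg per ml) with anti-CD28 (1 µg per ml), TGF-β (2 ng per ml) and IL-2, sorted for the Foxp3 reporter and rested for 1 day with IL-2. These resting iTregs were compared with iTregs restimulated through CD3 and CD28, either alone, with an inhibitor of the calcium channel ORAI, or with cyclosporine A (CsA), which blocks calcineurin, the phosphatase that activates NFAT. The labels name only an ORAI inhibitor. It was taken to be CM-4620, which the study's figures name for its RNA-seq of restimulated iTregs. BTP2, another blocker of calcium entry, was also used on iTregs in the study. The labels give the cell type of the CsA libraries as Treg and only their titles name iTregs. How long cells were activated before RNA was taken, and whether replicates were separate animals, is not given in the sources used here, so p-values measure only the spread between libraries, which may be technical. The iTreg groups differ from the sorted groups in culture and in the age of the mice as well as in cell type, and these cannot be told apart.

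Ikaros proteins bind DNA through zinc fingers near one end and pair with themselves and with each other through zinc fingers near the other end. They mostly recruit corepressor complexes such as NuRD, Sin3 and CtBP, and Ikaros itself is required for normal lymphocyte development. Helios is widely used as a marker of thymus-derived regulatory T cells, Eos works with Foxp3 in gene silencing, Aiolos is found in mature lymphocytes and in several helper T cell states, and Pegasus is the most divergent member.

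The genes lie on 4 chromosomes of the GRCm38 build. *Ikzf1* (ENSMUSG00000018654) is at chr11:11685003-11772926 on the plus strand, and *Ikzf3* (ENSMUSG00000018168) is on the same chromosome at chr11:98464902-98546031 on the minus strand. *Ikzf2* (ENSMUSG00000025997) is at chr1:69531214-69687245, *Ikzf4* (ENSMUSG00000002578) at chr10:128630843-128645991 and *Ikzf5* (ENSMUSG00000040167) at chr7:131388652-131410521, all on the minus strand. The merged length of the exons, UTRs included, was 5777 bases for *Ikzf1*, 11613 for *Ikzf2*, 8754 for *Ikzf3*, 5995 for *Ikzf4* and 5721 for *Ikzf5*. Exons of *Ikzf1* and *Ikzf3* overlap no other gene, and those of *Ikzf2* and *Ikzf4* share 1.24% and 0.617% of their bases with an antisense gene. For *Ikzf5* the shared part is 84.5%, with *Pstk* and *Gm44624* on the other strand, and since the library kit does not mark strand, its values are uncertain.

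Values are normalized counts, that is, gene counts divided by a size factor for each library. The libraries held 5256800 to 15685200 reads on genes, and the floor used here for an absent transcript, 3 reads, was worth 2.12 to 5.45 normalized counts, far under every value of the 5 members. *Foxp3* followed the labels, at 9.65 to 11.3 normalized counts in resting Tconvs, 7218 to 7767 in resting tTregs and 1178 to 1338 in resting iTregs. The tTreg libraries varied more among themselves than the others, with a median SD of log2 values over genes tested of 0.199 at rest and 0.223 after activation, against 0.105 to 0.142 in the other 6 groups, and the fit shares 1 spread over all groups. A fit of only the groups compared changed the call of no member. The summed level of the T cell markers *Cd3d*, *Cd3e*, *Cd3g*, *Cd4* and *Lck* was 21098 to 44621.

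**Figure D1:**
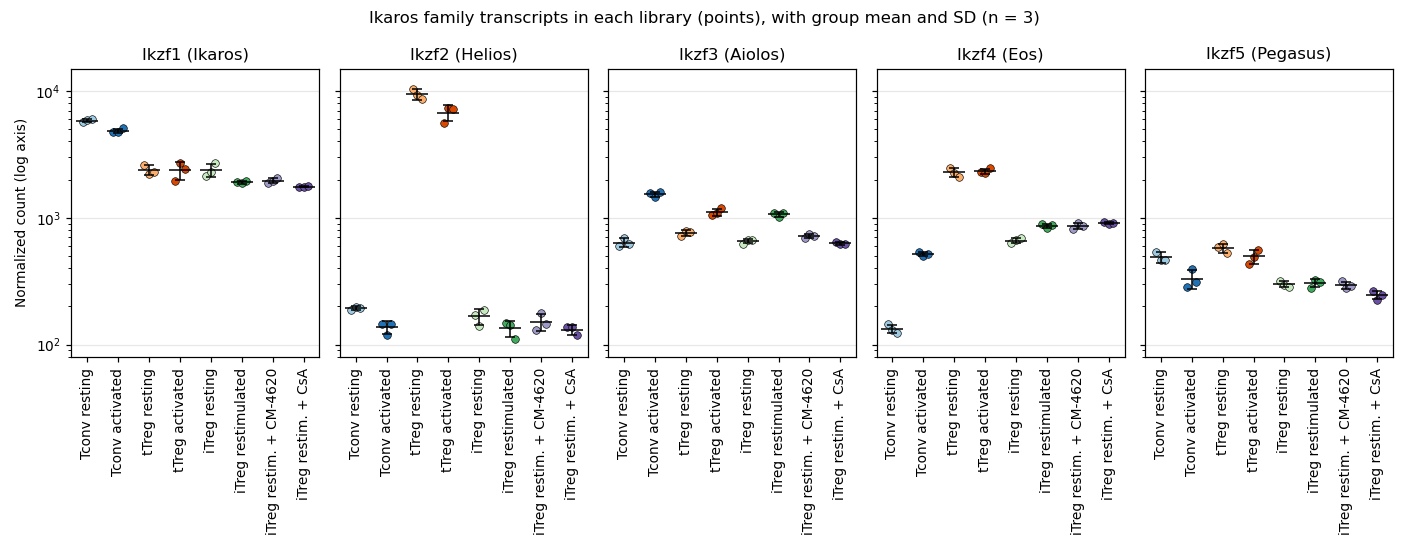
Normalized counts (log axis) of the 5 Ikaros family genes in the 8 groups, with points for the 3 libraries of a group, a bar for the mean and whiskers for the SD. *Ikzf2* stands between 5610 and 10382 in tTregs and at or below 199.8 elsewhere, *Ikzf4* climbs from Tconvs over iTregs to tTregs, *Ikzf1* is highest in Tconvs, and *Ikzf3* is raised in each stimulated group without an inhibitor.

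*Ikzf2*, the Helios gene, was the member with the largest excess in tTregs, and iTregs had none of this excess. The 3 libraries of resting tTregs had 10382, 9218 and 8610 normalized counts, and those of activated tTregs had 5610, 7313 and 7226. Resting Tconvs had 188, 199.8 and 196, activated Tconvs 146, 120 and 146, and resting iTregs 171, 141 and 189. The lowest tTreg library was far above the highest library of any Tconv or iTreg group. The difference between resting tTregs and resting Tconvs was 48.0-fold, a log2 fold change of 5.58 ± 0.14 (SE; limma, Benjamini-Hochberg adjusted p = 1.86e-18), which placed *Ikzf2* at rank 34 from the top of 11725 genes. After activation the same difference was 5.59 ± 0.14 on the log2 scale (limma, adjusted p = 3.24e-18). Bulk levels such as these do not separate fewer cells that express a gene from less RNA per cell.

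In iTregs, *Ikzf2* was not above its level in Tconvs. Resting iTregs averaged 167 ± 24.1 normalized counts (SD, n = 3) against 195 ± 5.87 in resting Tconvs, a log2 difference of -0.23 (95% interval -0.52 to 0.06, limma adjusted p = 0.139), and libraries of both groups overlapped. Against resting tTregs the level was 56.2-fold lower in iTregs, the 22nd largest fall of all genes tested (limma, adjusted p = 4.28e-19). The iTreg groups given stimulation stayed in the same range, with 149, 142 and 112 after restimulation, 132, 179 and 145 with CM-4620, and 137, 138 and 118 with CsA. No iTreg group differed from another in *Ikzf2* past the thresholds, and among the 6 groups other than tTregs every neighbour in order of mean overlapped the next. In Tconvs, *Ikzf2* fell on activation by 0.50 on the log2 scale (limma, adjusted p = 0.00326), just past the limit of 0.5, and the call was lost with a pseudocount of 5 (-0.49), quantile normalization (-0.43), TMM rescaling (-0.46), edgeR (-0.45) and DESeq2 (-0.50, short of the limit), and without activated Tconv replicate 2 (-0.41) or resting Tconv replicate 2 (-0.48) or 3 (-0.50, short of the limit). In tTregs the change was -0.49 (limma, adjusted p = 0.00760), just short of the limit, and it passed with edgeR (-0.52), TMM rescaling (-0.53) and quantile normalization (-0.82). The response of tTregs and Tconvs differed by 0.01 on the log2 scale (95% interval -0.40 to 0.42, limma adjusted p = 0.972).

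*Ikzf4*, the gene of the Foxp3 partner Eos, formed a graded series. Resting Tconvs had 145, 131 and 125 normalized counts and activated Tconvs 541, 499 and 521. Resting iTregs had 629, 666 and 690 and resting tTregs 2489, 2262 and 2107. These 4 groups did not overlap. Resting tTregs exceeded resting Tconvs 17.0-fold (log2 fold change 4.09 ± 0.07, SE, limma adjusted p = 4.17e-21), rank 127 from the top of all genes tested. Resting iTregs exceeded resting Tconvs 4.93-fold (log2 2.30 ± 0.07, limma adjusted p = 2.73e-17) and were 3.44-fold below resting tTregs (limma, adjusted p = 3.02e-15). Against activated Tconvs, which had also been stimulated, resting iTregs were higher in every library, but by 0.35 on the log2 scale (95% interval 0.19 to 0.50, limma adjusted p = 0.000359), which is short of the limit of 0.5.

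Activation raised *Ikzf4* in Tconvs and not in tTregs. Its level in Tconvs rose 3.88-fold, by 1.96 ± 0.07 on the log2 scale (SE, limma adjusted p = 1.37e-15). Activated tTregs had 2287, 2236 and 2454 normalized counts, within the spread of resting tTregs, and a log2 change of 0.03 (95% interval -0.12 to 0.18, limma adjusted p = 0.801). The difference between both responses was -1.93 ± 0.10 (limma, adjusted p = 2.69e-12), and *Ikzf4* stood at place 429 from the bottom of 11725 genes in this comparison. The excess of tTregs over Tconvs in *Ikzf4* was 4.46-fold after activation (log2 2.16, limma adjusted p = 3.95e-16), against 17.0-fold at rest. *Foxp3*, measured in the same way, also rose on activation of Tconvs (log2 1.61, from 10.4 ± 0.83 to 33.8 ± 2.46 normalized counts), but stayed far below the level of either Treg type.

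Restimulated iTregs had 888, 832 and 878 normalized counts of *Ikzf4*, all above the resting iTreg libraries. The log2 change was 0.39 ± 0.07 (SE, limma adjusted p = 0.000627), which passes the adjusted p but not the limit of 0.5. With CM-4620 the libraries had 821, 917 and 864 and overlapped those of restimulated iTregs, and with CsA they had 925, 892 and 903, just above them. The log2 difference from restimulated iTregs was 0.00 with CM-4620 (95% interval -0.15 to 0.15) and 0.07 with CsA (95% interval -0.09 to 0.22). Of the difference between restimulated and resting iTregs, 100.4% ± 20.5 was present with CM-4620 and 117% ± 6.91 with CsA (SD over 3 libraries, on the log2 scale). The SD covers the inhibitor libraries only, with the resting and restimulated means held fixed.

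The place of iTregs between Tconvs and tTregs varied with the gene. On a log2 scale with resting Tconvs at 0% and resting tTregs at 100%, resting iTregs stood at -4.11% ± 3.79 for *Ikzf2*, 56.3% ± 1.65 for *Ikzf4*, 100.03% ± 13.2 for *Ikzf1* and 72.7% ± 1.08 for *Foxp3* (SD, n = 3). These SDs cover the iTreg libraries only, with the means at both ends held fixed. After restimulation the position was -9.70% for *Ikzf2*, 65.8% for *Ikzf4* and 63.6% for *Foxp3*. *Foxp3* fell on restimulation by 0.85 on the log2 scale, from 1280.0 ± 88.4 to 710.3 ± 18.7 normalized counts, while the libraries of its partner *Ikzf4* were higher by the 0.39 given above. For *Ikzf3* and *Ikzf5* the gap between Tconvs and tTregs was only 0.25 and 0.24 on the log2 scale, too small for such a position to be read.

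**Figure D2:**
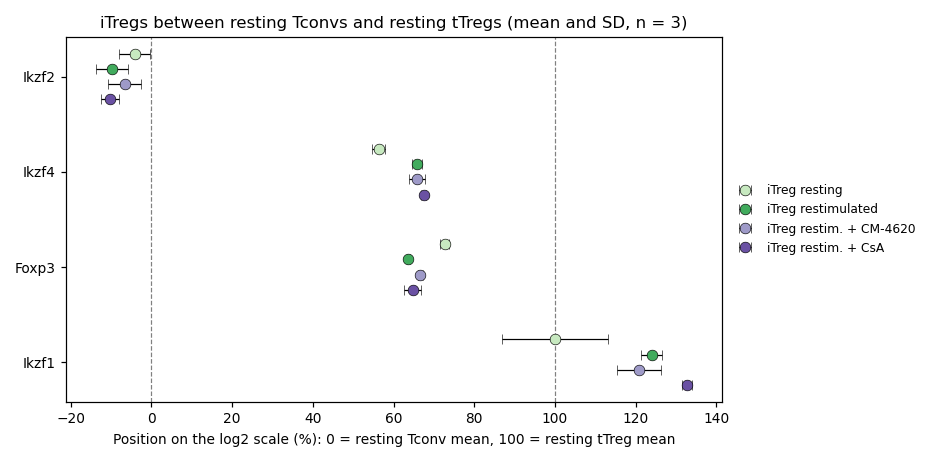
Position of the 4 iTreg groups (mean and SD of 3 libraries) on a log2 scale from the mean of resting Tconvs (0%) to the mean of resting tTregs (100%), for *Ikzf2*, *Ikzf4*, *Foxp3* and *Ikzf1*. *Ikzf2* lies at or below 0% in every iTreg group, *Ikzf4* between 56.3% and 67.4%, and *Ikzf1* at 100% or beyond.

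*Ikzf1*, the founding member, was highest in Tconvs and lower in all 6 Treg groups. The libraries had 5664, 5851 and 5954 normalized counts in resting Tconvs and 4778, 4706 and 5059 in activated Tconvs. Resting tTregs had 2613, 2212 and 2293 and resting iTregs 2131, 2308 and 2692. Every Treg library, of either origin, lay below every Tconv library. *Ikzf1* was 2.46-fold lower in resting tTregs than in resting Tconvs (log2 -1.30 ± 0.09, SE, limma adjusted p = 1.44e-10) and 2.46-fold lower in resting iTregs (limma, adjusted p = 4.48e-11). Resting iTregs and resting tTregs had a ratio of 1.00, with a 95% interval of -0.20 to 0.20 on the log2 scale, although *Ikzf2* and *Ikzf4* differed widely between the same groups. For *Ikzf1*, alternative normalizations and fits gave differences from -0.22 to 0.00211 on the log2 scale, none of them called.

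Markers moved with this contrast as well. The summed level of the 5 T cell markers was 42887 to 44621 in resting Tconvs against 21825 to 25804 in resting tTregs and 25069 to 27029 in resting iTregs, and the NK cell genes *Ncr1* and *Klrb1c* summed to 19.3 to 30.9 in resting Tconvs and 0 in every Treg library. The CD8 T cell genes *Cd8a* and *Cd8b1* summed to 223 to 236 in resting Tconvs. They summed to 157 to 178 in resting tTregs and 99.1 to 122 in resting iTregs. Of these 2 genes, 1 was called higher and 1 lower than in resting Tconvs in each Treg type, where 39.3% (tTregs) and 64.3% (iTregs) of all genes were called. The part of these markers in the *Ikzf1* difference was not tested. Resting iTregs were also below activated Tconvs in *Ikzf1*, by 1.03 on the log2 scale (limma, adjusted p = 5.07e-09), and there the T cell marker sums were nearer, at 27349 to 29066 in activated Tconvs, and NK genes were at 0.898 to 3.54. The CD8 genes summed to 110 to 123 in activated Tconvs, a range that overlapped that of resting iTregs.

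Stimulation did not move *Ikzf1* past the thresholds. The log2 change was -0.26 in Tconvs (limma, adjusted p = 0.0182), -0.01 in tTregs (95% interval -0.21 to 0.19) and -0.31 in iTregs (limma, adjusted p = 0.0240), none past the limit of 0.5. The lowest level of all groups was in CsA-treated iTregs, with 1757, 1748 and 1784 normalized counts, all below the restimulated libraries at 1898, 1868 and 1957. That difference was -0.11 on the log2 scale (95% interval -0.31 to 0.08) and did not pass the test.

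*Ikzf3*, the Aiolos gene, was the member that followed stimulation in all 3 cell types, and the only member that the inhibitors lowered past the thresholds. In Tconvs it went from 602, 694 and 617 normalized counts at rest to 1555, 1462 and 1602 after activation. In tTregs it went from 713, 786 and 779 to 1053, 1081 and 1193. In iTregs it went from 624, 672 and 669 to 1101, 1013 and 1094. Resting and stimulated libraries did not overlap in any of the 3 cell types. The rise was 1.27 ± 0.07 on the log2 scale in Tconvs (SE, limma adjusted p = 9.62e-13), 0.55 ± 0.07 in tTregs (limma, adjusted p = 3.39e-06) and 0.71 ± 0.07 in iTregs (limma, adjusted p = 3.14e-07). Without activated tTreg replicate 3 the rise in tTregs was 0.49 and no longer passed the limit of 0.5.

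The *Ikzf3* response was smaller in tTregs than in Tconvs by 0.73 ± 0.10 on the log2 scale (limma, adjusted p = 4.17e-06), while iTregs and tTregs differed in response by 0.16 (95% interval -0.05 to 0.37, limma adjusted p = 0.246). Resting levels were close, with tTregs above Tconvs by 0.25 (limma, adjusted p = 0.00413, short of the limit) and iTregs above Tconvs by 0.04 (95% interval -0.10 to 0.19). After stimulation, activated tTregs and restimulated iTregs overlapped, and activated Tconvs lay above both. The difference of activated tTregs from activated Tconvs, -0.47 on the log2 scale (limma, adjusted p = 5.02e-06), fell just short of the limit and passed it with TMM rescaling (-0.54), with edgeR (-0.55), without activated Tconv replicate 2 (-0.51) and without activated tTreg replicate 3 (-0.53). Across the series, 87 genes rose past the thresholds in all 3 cell types, 0.742% of those tested, and *Ikzf3* was one of them.

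Aiolos is also used by B cells, so B cell genes were read beside it. *Ms4a1* and *Pax5*, which mark B cells, were at 0 normalized counts in all 24 libraries. *Cd79b*, which encodes a part of the B cell receptor complex, averaged 124 ± 2.18 normalized counts when tTregs were resting, against 7.97 ± 2.34 for resting Tconvs (SD, n = 3). Activated tTregs had 92.9, 122 and 85.4, of which 1 library lay at the lowest resting tTreg value and 2 lay below, while *Ikzf3* was higher in all 3. *Cd79a*, the partner of *Cd79b* in that complex, was low, with 1.81, 14.3 and 7.97 in resting and 4.04, 13.2 and 3.63 in activated tTregs, against 22.6, 16.9 and 14.9 in resting Tconvs (limma, adjusted p = 0.0724 for resting tTregs against resting Tconvs).

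With CM-4620 the *Ikzf3* libraries of restimulated iTregs had 695, 740 and 719 normalized counts, and with CsA 650, 621 and 621, all well below the restimulated libraries without inhibitor. The log2 difference from restimulated iTregs was -0.57 ± 0.07 with CM-4620 (SE, limma adjusted p = 4.49e-05) and -0.76 ± 0.07 with CsA (limma, adjusted p = 1.93e-06). These falls were at place 479 and 241 from the bottom of 11725 genes. Compared with resting iTregs, the level was 0.13 higher on the log2 scale with CM-4620 (95% interval -0.01 to 0.28) and 0.05 lower with CsA (95% interval of the log2 difference -0.20 to 0.09). Of the rise on restimulation, 18.7% ± 6.47 was left with CM-4620 and -7.72% ± 5.44 with CsA (SD over 3 libraries, on the log2 scale), a negative value meaning a level under that of resting iTregs. Here too the SD leaves out the spread of the resting and restimulated means.

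Few of the genes that restimulation raised were called lower with an inhibitor, in comparisons that called 1.98% (CM-4620) and 1.59% (CsA) of all genes. Of 589 genes raised, 68 (11.5%) were lowered past the thresholds with CM-4620, 45 (7.64%) with CsA and 26 (4.41%) with both, *Ikzf3* among them. A gene that was not called may still have fallen. The restimulated libraries are the reference in both inhibitor comparisons, and they also define the 589 genes raised. A level high by chance in them favours a later fall with either inhibitor, so these shares are not independent of that choice. CM-4620 and CsA act on the same pathway, CM-4620 on the entry of calcium and CsA on calcineurin further down. They were compared directly as well, and no member passed in that comparison. *Ikzf3* was 0.19 higher on the log2 scale with CM-4620 than with CsA, with a 95% interval of 0.04 to 0.33 and a limma adjusted p of 0.620, and the libraries of both groups did not overlap. The doses used for these libraries are not given in the sources used here.

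**Figure D3:**
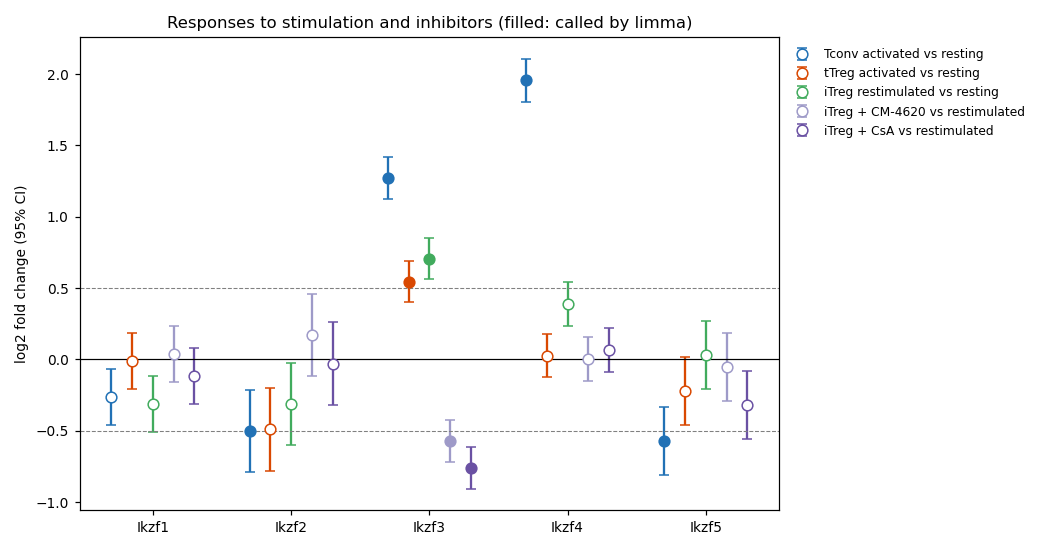
Log2 fold changes with 95% intervals (limma, 3 libraries a group) of the 5 genes for activation of Tconvs and tTregs, restimulation of iTregs, and CM-4620 or CsA against restimulated iTregs, filled where the change was called and open where it was not, with dashed lines at the limit of 0.5. *Ikzf3* is called in all 5 contrasts, up in the 3 stimulations and down with both inhibitors, and *Ikzf4* is called only in Tconvs.

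*Ikzf5* group means ranged from 246 to 578 normalized counts. Resting tTregs had 588, 620 and 525 normalized counts, resting Tconvs 540, 464 and 462, and resting iTregs 318, 297 and 287. Resting iTregs lay below both sorted cell types without overlap, by 0.70 on the log2 scale against Tconvs (limma, adjusted p = 1.17e-05) and by 0.94 against tTregs (limma, adjusted p = 2.03e-07). Activation lowered *Ikzf5* in Tconvs by 0.57 (limma, adjusted p = 0.000165) to 286, 393 and 312 normalized counts, a call that was lost without activated Tconv replicate 1 (-0.48) or resting Tconv replicate 1 (-0.50). Activated tTregs exceeded activated Tconvs by 0.59 (limma, adjusted p = 0.000126), which fell to 0.49 without activated Tconv replicate 1. Restimulation of iTregs left it at 282, 325 and 313, and the CsA libraries had 263, 227 and 247, lower than restimulated iTregs by 0.32 with a limma adjusted p of 0.152.

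A gene on the opposite strand, whose reads may be mixed with those of *Ikzf5*, was read beside it. *Pstk*, which encodes a kinase of selenocysteine synthesis, averaged 396 ± 23.6 normalized counts in resting tTregs, 366 ± 47.2 in resting Tconvs, 247 ± 19.9 in activated Tconvs and 160.4 ± 11.2 in resting iTregs. Without strand, reads from the shared bases cannot be told apart, so the differences given for *Ikzf5* cannot be assigned to *Ikzf5* alone.

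The calls were also counted by comparison. Between resting tTregs and resting Tconvs 3 of the 5 were called, 2 higher in tTregs (*Ikzf2* and *Ikzf4*) and 1 lower (*Ikzf1*), where 39.3% of all genes tested were called. Between the activated groups 4 were called, against 48.6% of all genes. Resting iTregs differed from resting Tconvs in 3 (64.3% of all genes), from activated Tconvs in 2 (42.6%) and from resting tTregs in 3 (64.0%). Restimulated iTregs differed from activated tTregs in 3, *Ikzf2*, *Ikzf4* and *Ikzf5*, each lower in iTregs, where 59.3% of all genes were called. With so many genes called in these contrasts, 3 of 5 members is near the background, and the number called is no result about the family.

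For stimulation, 4 members were called in Tconvs (*Ikzf3* and *Ikzf4* higher, *Ikzf2* and *Ikzf5* lower) against 50.3% of all genes, 24.8% being higher, and 1 in tTregs (*Ikzf3*, higher) against 23.2%, 13.0% being higher. The difference between these responses was called for 2, *Ikzf3* and *Ikzf4*, against 36.6% of all genes. Restimulation of iTregs called 1, *Ikzf3*, against 10.4%, with 5.02% higher, and the iTreg response differed from that of tTregs in none, against 21.3%. CM-4620 and CsA each called 1, *Ikzf3*, against 1.98% and 1.59% of all genes, with 0.930% and 0.640% lower. Between both inhibitors no member was called (0.0853% of all genes), nor between resting iTregs and the restimulated iTregs given CM-4620 (5.11%) or CsA (7.04%). In those last 2 comparisons *Ikzf4* was higher by 0.39 and 0.45 on the log2 scale, with limma adjusted p of 0.00127 and 0.000204, and short of the limit of 0.5.

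Normalized counts per kb of exon allow the members to be set beside each other. The order of some members depends on the length used, here that of merged exons. *Ikzf1* made up 83.6% ± 0.86 of the summed per-kb level of the family in resting Tconvs and 61.9% ± 2.26 in resting iTregs (SD, n = 3), and it led in all Tconv and iTreg groups. In tTregs the lead passed to *Ikzf2*, with 45.2% ± 0.79 at rest and 36.3% ± 1.57 after activation, followed at rest by *Ikzf1*, at 21.9% to 23.8%, and *Ikzf4*, at 21.3% ± 0.25. *Ikzf2* was 1.01% to 2.17% of the family in every other group. *Ikzf4* was 1.85% in resting Tconvs, 16.7% in resting iTregs and 26.0% in CsA-treated iTregs. *Ikzf3* reached its highest share, 18.4% ± 0.52, in restimulated iTregs.

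The summed per-kb level itself was lowest in iTregs. It was 1205 ± 18.8 normalized counts per kb in resting Tconvs, 1789 ± 141 in resting tTregs and 664 ± 55.3 in resting iTregs, with no overlap between the libraries of these groups. Stimulation left it at 1171 ± 36.5 in Tconvs, 1590 ± 164 in tTregs and 662 ± 14.1 in iTregs. iTregs had the lower *Ikzf1* level of tTregs without the *Ikzf2* that made up the largest share there.

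**Figure D4:**
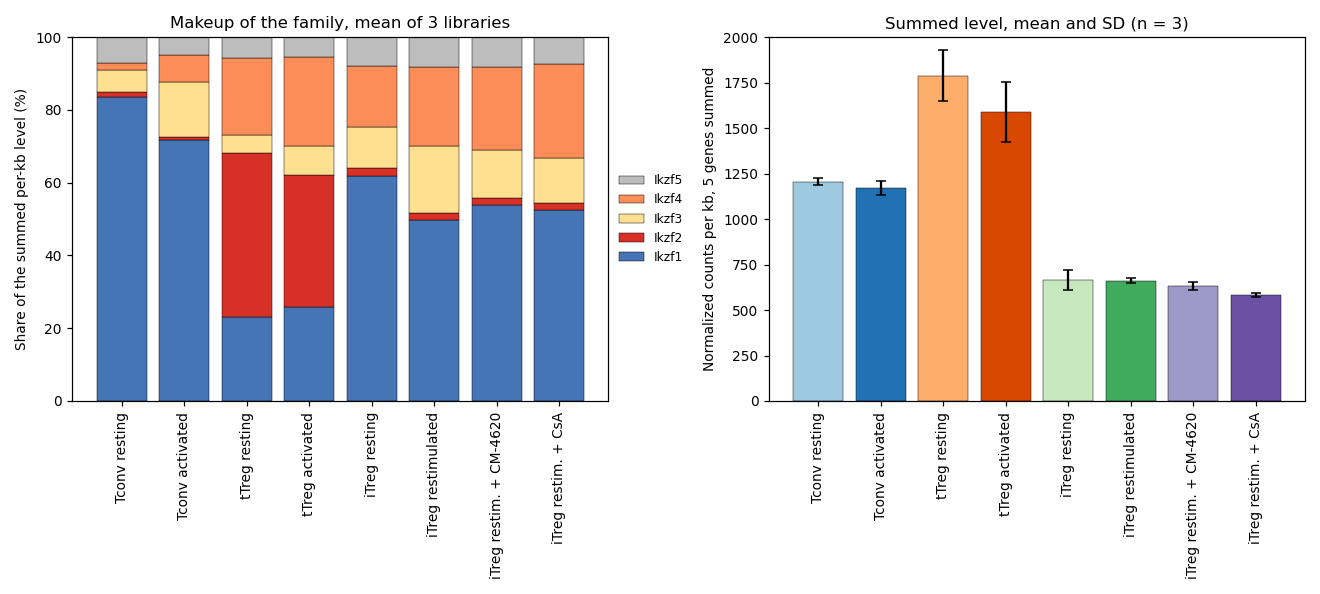
Left, share (%) of each member in the summed per-kb level of the 5 genes, as the mean of 3 libraries in each of the 8 groups. Right, that summed level in normalized counts per kb, with the SD over 3 libraries, which is 1789 in resting tTregs and 583 to 664 in the iTreg groups.

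Across the 24 libraries, which share their groups, the log2 levels of *Ikzf2* and *Ikzf4* had a Pearson r of 0.68, *Ikzf1* and *Ikzf4* of -0.70, *Ikzf2* and *Ikzf5* of 0.78, and *Ikzf1* and *Ikzf2* of -0.11. The genes whose levels were most like each member over the same libraries were also listed. For *Ikzf2* they were *Ntn4* (netrin-4, r = 0.994), *Slc22a5* (a carnitine transporter, r = 0.992) and *Mbnl3* (a splicing regulator, r = 0.991). *Ntn4* was at 32.1 ± 2.82 normalized counts in resting and 18.2 ± 4.76 in activated tTregs, with 0 in all 18 other libraries, and *Mbnl3* went from 365 in resting Tconvs to 3435 in resting tTregs. For *Ikzf4* they were *Nabp1* (a single-stranded DNA binding protein), *Jmjd7* and *Sec24a* (a coat protein of vesicles that leave the endoplasmic reticulum), with r from 0.971 to 0.974. *Nabp1* repeated the graded order, with means going from 575 normalized counts in resting and 1336 in activated Tconvs to 1792 in resting iTregs and 5018 in resting tTregs. For *Ikzf1* the nearest were *Dazap2*, *Dennd2d* and *Cd9* (a tetraspanin), with r from 0.962 to 0.968. *Ikzf3* had no gene as near, the highest being *Utp14a* (ribosome biogenesis), *Pex2* (a peroxisome assembly factor) and *Akt2* (a kinase), with r from 0.847 to 0.860. For *Ikzf5* they were *Phf3*, *Gpr155* and *Shprh*, with r from 0.953 to 0.956.

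Corepressors that Ikaros proteins recruit were read from a list of 17 genes of the NuRD, Sin3 and CtBP complexes, all tested. Between resting tTregs and resting Tconvs 2 were higher and 1 lower, where 39.3% of all genes were called, with *Chd3*, a NuRD remodeler, 2.27-fold higher, *Mbd2*, a methyl-DNA binding protein of NuRD, higher by 0.84 on the log2 scale, and *Mbd3* lower by 0.73. *Chd3* had 3065 ± 215 normalized counts in resting tTregs, 1347 ± 36.3 in resting Tconvs and 1240.1 ± 93.1 in resting iTregs. Between resting iTregs and resting Tconvs 7 were higher and 3 lower, near the 64.3% of all genes called there, among them the histone-binding *Rbbp7* (log2 1.32) and the deacetylase *Hdac1* (log2 1.19) higher, and *Ctbp2* (-1.78, at no more than 28.1 normalized counts in any of these libraries) and *Mta3* (-0.87) lower. The median over the list was 0.48 on the log2 scale in that comparison, beside 0.04 over all genes. Against activated Tconvs the median was 0.16, beside 0.03 over all genes. There 4 of the 17 were higher in resting iTregs and 0 lower, where 42.6% of all genes were called. Against resting tTregs, resting iTregs had 8 higher and 5 lower, beside 64.0% of all genes called, *Hdac1* (1.29) and *Rbbp7* (1.23) higher and *Chd3* (-1.31) lower among them. *Ctbp1*, a corepressor that Eos binds, was 0.02 higher on the log2 scale in resting iTregs than in resting Tconvs (limma, adjusted p = 0.878) and 0.50 higher in resting iTregs than in resting tTregs (limma, adjusted p = 0.000379), just past the limit, and the last call was lost without resting iTreg replicate 1 (0.50, short of the limit) or 3 (0.41) or resting tTreg replicate 2 (0.44) or 3 (0.46).

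The same corepressors were read across stimulation. In Tconvs 3 rose and 4 fell, against 50.3% of all genes called, with *Hdac1* higher by 0.95 and *Mta3* and *Chd3* lower by 0.91 and 0.81 on the log2 scale. *Ctbp2* was called lower as well (-1.05), a call lost without resting Tconv replicate 2 (-0.92). In tTregs 2 rose and 1 fell, against 23.2% of all genes, *Hdac1* (0.64) and *Mta2* (0.88) up and *Gatad2b* (-0.70) down. The *Mta2* libraries overlapped, with 1309.9, 2713 and 3357 normalized counts at rest and 4702, 3031 and 5244 after activation, and without resting tTreg replicate 1 the change was 0.48 and not called. In restimulated iTregs none rose and 2 fell, against 10.4% of all genes, *Mbd2* by 0.77 and *Chd3* by 0.55, the second call being lost without resting iTreg replicate 3 (-0.50, short of the limit). None of the 17 was called with either inhibitor against restimulated iTregs, where 1.98% and 1.59% of all genes were.

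Of 8 genes known as targets of Ikaros proteins in T cells, 6 were tested. *Il2*, which Ikaros and Aiolos are known to repress, was between 1.14 and 7.20 normalized counts in every library, at or near the floor of 3 reads, and *Hes1* was at 0. Between resting tTregs and resting Tconvs 3 were higher and 2 lower, beside 39.3% of all genes called, the largest difference being in *Dntt* (terminal transferase), at 9.07, 10.4 and 4.56 normalized counts in tTregs against 415 ± 9.35 in Tconvs. In activated Tconvs *Il10*, *Ifng* and the helper factor *Tbx21* rose and *Dntt* fell, where 50.3% of all genes were called. *Tbx21* went from 22.6, 23.4 and 15.8 to 159.8, 236 and 120.3 normalized counts (log2 2.97, limma adjusted p = 8.87e-05), while in activated tTregs only *Dntt* was called, falling to 4.04, 4.73 and 0, at the floor. *Tbx21* changed there by -1.29 on the log2 scale and was not called. It was called lower without activated tTreg replicate 1 (-2.18, limma adjusted p = 0.000992) or resting tTreg replicate 2 (-1.78, limma adjusted p = 0.0238). The 8 target genes together summed to only 27.2 to 44.4 normalized counts in activated tTregs.

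*Il10*, the gene of a suppressive cytokine, was the only target gene called on restimulation of iTregs, going from 34.8, 28.2 and 34.9 normalized counts to 186, 139 and 148 (log2 2.23 ± 0.42, SE, limma adjusted p = 0.000652). With CM-4620 it was at 61.2, 65.1 and 52.6 and with CsA at 113, 138 and 103, in each case below the restimulated libraries, and neither difference passed the test (log2 -1.38, limma adjusted p = 0.0809, and log2 -0.41, limma adjusted p = 0.742). *Tbx21* libraries did not overlap either, at 83.3, 98.9 and 54.6 in resting and 175, 226 and 123 in restimulated iTregs (log2 1.13, limma adjusted p = 0.176). With CM-4620 they had 88.8, 61.6 and 28.1 and with CsA 84.8, 104.7 and 68.0, all below the restimulated ones, and neither difference passed (limma, adjusted p = 0.135 and 0.439). *Ifng* was at 2.11, 3.03 and 10.6 in resting and 13.1, 19.1 and 18.2 in restimulated iTregs (log2 1.74, limma adjusted p = 0.0929). Without resting iTreg replicate 3 this rise of *Ifng* was called (log2 2.31, limma adjusted p = 0.0465). With CM-4620 it was at 2.04, 6.16 and 6.14 (log2 -1.71, limma adjusted p = 0.248) and with CsA at 2.04, 5.13 and 0 (log2 -2.73, limma adjusted p = 0.0368), close to the floor and below the restimulated libraries in both groups. The call with CsA was lost without CsA replicate 1 or 3 and without any 1 restimulated library (limma, adjusted p up to 0.200).

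Between resting iTregs and resting Tconvs 4 target genes were higher (*Il10*, *Notch3*, *Tbx21* and *Cd8a*) and *Dntt* was lower, where 64.3% of all genes were called, the last at 75.8 ± 7.57 against 415 ± 9.35. The *Cd8a* call was lost without resting iTreg replicate 3 (log2 0.76) or resting Tconv replicate 3 (log2 0.70). *Cd8b1*, the other CD8 gene read as a marker, was called lower in the same comparison. *Notch3* was near the floor in resting Tconvs, so the size of its difference is uncertain.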

How the data were processed

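The 24 RNA-seq libraries (modified SMART-seq2) of 8 groups of 3 were analysed, grouped by their labels. Per the study's methods and the submitters' processing notes, the authors trimmed reads with cutadapt 1.18, aligned them to mm10 with STAR 2.5.3, counted genes with RSEM 1.3.0 and normalized them with DESeq2 1.26. What the authors deposited is a signal made by dividing each library's gene counts by its size factor, so that unequal depth is removed but a change in total RNA per cell is not seen. Whole reads were recovered within a tolerance of 0.1 for 100% of values, and edgeR on them called 1339 genes on restimulation of iTregs, 287 with CM-4620 and 258 with CsA, where limma called 1217, 232 and 187. Columns of other samples were not present, and the chromatin libraries were not used here.

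The test was confined to genes that reached 10 normalized counts in 3 or more libraries. After addition of a pseudocount of 1, log2 values were analysed in 1 fit of 24 libraries with limma 3.58.1 (R 4.3.3, trended prior variance, all groups sharing the spread). A gene was called at a Benjamini-Hochberg adjusted p below 0.05 over all genes tested and a log2 fold change past 0.5 in either direction, the limits of the study's DESeq2 analysis. Fold changes are on the log2(value + 1) scale. Differences of response were interactions in the same fit. The fit was tested on simulated data. Floors cover counting error only.

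Positions and exon lengths came from GENCODE vM21 (GRCm38), which is older than the release the authors used. Genes named beside the 5 members were the 3 with the highest Pearson r to each over 24 libraries, corepressors and target genes by size of change, and *Foxp3*. The members and lists were chosen with earlier results of these data known. Alternatives were pseudocounts of 0.1 and 5, no filter and a filter of 100, quantile normalization, TMM rescaling, only the groups compared, a replicate block, each library left out, calls by adjusted p only, a log2 limit of 1, edgeR 4.0.16 (quasi-likelihood) and DESeq2 1.42.0 on the recovered reads, the longest transcript as length, and likeness over group means. Leaving out each library for the corepressor and target genes was added after seeing the data. Figures were drawn with Python and matplotlib.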

Additional observations from a re-analysis of the deposited data

Results flagged for a closer look

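The change on activation differed between cell types for 2 members. *Ikzf4* rose in Tconvs and not in tTregs, a difference in response (tTreg minus Tconv) of -1.93 on the log2 scale (limma, adjusted p = 2.69e-12), with all 3 activated libraries above all 3 resting ones in Tconvs and overlapping libraries in tTregs. *Ikzf3* rose in both and less in tTregs, with a difference of -0.73 (limma, adjusted p = 4.17e-06). The 2 differences kept their direction and their call in every alternative run, except that -0.73 for *Ikzf3* is under the stricter limit of 1. Groups of 3 libraries are too small for a test of single libraries that stand apart.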

How the results depend on the processing

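The *Ikzf2* and *Ikzf4* excess of tTregs, the low *Ikzf1* of tTregs and iTregs against Tconvs, the *Ikzf4* excess of resting iTregs over resting Tconvs and the fall of *Ikzf3* with CM-4620 and CsA kept their direction in every alternative, and their call in every one except that the *Ikzf3* falls are under a log2 limit of 1. With that limit the members called were 2 in activated Tconvs, 0 in activated tTregs, 1 in the difference of both responses, 0 on restimulation of iTregs and 0 with CM-4620 and 0 with CsA. With the adjusted p alone they were 2 in activated tTregs, 3 on restimulation, 1 in the difference between iTreg and tTreg responses, and 1 and 2 in iTregs with CM-4620 and CsA against resting iTregs. In activated tTregs 2 were called with quantile normalization, TMM rescaling or edgeR, and 1 to 2 with a library left out, *Ikzf2* being the one that crossed the limit without activated tTreg replicate 2 (-0.56) or 3 (-0.55) and without resting tTreg replicate 2 (-0.50) or 3 (-0.55).

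Signs turned only for differences near 0, none of them called. For *Ikzf4* in activated tTregs the value was -0.0407 with quantile normalization, -0.0125 with TMM rescaling and -0.0149 with edgeR. For *Ikzf2* in the difference of activation responses it was -0.000596 with a pseudocount of 5, -0.39 with quantile normalization, -0.0729 with TMM rescaling and -0.0703 with edgeR. With DESeq2, *Ikzf1* was at 0.000361 on activation of tTregs and at 0.00211 between resting iTregs and resting tTregs, and with quantile normalization *Ikzf3* was at -0.00148 in resting iTregs against resting Tconvs. With a library left out, the ranges that held 0 were -0.11 to 0.12 for *Ikzf1* and -0.0302 to 0.0899 for *Ikzf4* in activated tTregs, -0.0841 to 0.14 for *Ikzf2* in the difference of responses, -0.22 to 0.00865 for *Ikzf5* in resting iTregs against activated Tconvs, -0.0935 to 0.0750 for *Ikzf1* in resting iTregs against resting tTregs, -0.0145 to 0.0874 for *Ikzf5* on restimulation, -0.0881 to 0.00211 for *Ikzf3* in restimulated iTregs against activated tTregs, -0.0391 to 0.0405 for *Ikzf4* with CM-4620, -0.16 to 0.0506 for *Ikzf2* with CsA, and -0.0768 to 0.0155 for *Ikzf5* with CM-4620 against resting iTregs.

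The lead of *Ikzf1* outside tTregs held with the longest transcript as length, at 79.2% and 64.1% in resting and activated Tconvs, 56.2% in resting iTregs, 43.3% after restimulation, 48.3% with CM-4620 and 47.2% with CsA. The order of *Ikzf3* and *Ikzf4* did not hold in resting and restimulated iTregs. With that length *Ikzf3* had 17.4% and *Ikzf4* 15.8% in resting iTregs, against 11.3% and 16.7% with merged exons. In restimulated iTregs they had 27.2% and 19.7%, against 18.4% and 21.8%. With either inhibitor *Ikzf4* stayed ahead. Over 8 group means, 0 of the 3 genes nearest to *Ikzf1*, *Ikzf2*, *Ikzf3* and *Ikzf5* stayed among the nearest 3. Over all genes, a log2 limit of 1 left 842 of 2718 in activated tTregs, 461 of 1217 on restimulation, 82 of 232 with CM-4620 and 62 of 187 with CsA. It left 2357 of 4612 between resting tTregs and Tconvs, 2880 of 5700 between the activated ones, 3126 of 5903 in activated Tconvs, 2159 of 4295 in the difference of responses and 978 of 2501 in that of iTregs and tTregs, 4959 of 7537, 2716 of 4991 and 4912 of 7507 for resting iTregs against resting Tconvs, activated Tconvs and resting tTregs, 4243 of 6952 for restimulated iTregs against activated tTregs, and 201 of 599 and 265 of 826 for CM-4620 and CsA against resting iTregs. The adjusted p alone gave 4677 in activated tTregs, 2225 on restimulation, 409 with CM-4620, 374 with CsA, and 1136 and 1618 for these against resting iTregs. A fit of only the groups compared gave 1400 in activated tTregs. Between the inhibitors 10 genes became 4 with the limit of 1, 19 with a pseudocount of 5, 22 with only the groups compared, 26 with edgeR and 36 with DESeq2. Quantile normalization turned the share of higher genes between resting iTregs and activated Tconvs from 56.8% to 43.4%. Whether replicate numbers pair samples is open: same-numbered libraries all had positive r in some comparisons but never all above 0.1. With replicate number as a block, no count of members changed (3 between resting tTregs and Tconvs, 4 in activated Tconvs, 1 on restimulation). Depth limited none of the 5 members.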
